A study of Pseudotaxus chienii with 9 samples.

Results

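The genes described here are those of the phenylpropanoid, lignin and dirigent module of Pseudotaxus chienii, a relative of the yews. They were chosen by the text of their descriptions alone, which had to name an enzyme of the route from phenylalanine to lignin, a laccase, a dirigent protein or a pinoresinol reductase. The choice gave 133 of the 26827 genes in the table. Messenger RNA of leaves was sequenced in 9 libraries that form 3 groups of 3. Libraries labelled CK name no agent, and the rest are labelled as given methyl jasmonate (MeJA), the volatile ester of a defence hormone, for 1 day or for 2 days. The labels name a single species and tissue and give no strain, plant age or dose, no mock treatment of CK and no time at which CK was taken, so effects of MeJA, handling and time cannot be told apart. Nor do they state whether each library is a different plant, and p-values therefore measure the spread between libraries, which may be technical.

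Phenylalanine ammonia-lyase opens the phenylpropanoid pathway by turning phenylalanine into cinnamate. Hydroxylases, ligases, transferases, methyltransferases and reductases then make monolignols, the alcohols from which lignin is built. Laccases and peroxidases oxidise monolignols in the cell wall, where the radicals join into lignin. Dirigent proteins guide such radicals into lignans of a single handedness, and pinoresinol reductases carry these lignans further. In conifers many of these genes are known to respond to wounding, fungi and jasmonate.

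By step, the members were 3 genes for phenylalanine ammonia-lyase (PAL), 4 for 4-coumarate CoA ligase (4CL) and 1 for a 4CL-like protein. A further 5 coded for hydroxycinnamoyl-CoA shikimate transferase (HCT), 2 for caffeoylshikimate esterase (CSE) and 8 for caffeoyl-CoA O-methyltransferase (CCoAOMT). There were 9 genes for cinnamoyl-CoA reductase (CCR), 3 for cinnamyl alcohol dehydrogenase (CAD), 24 laccases, 50 dirigent proteins and 7 pinoresinol reductases (PLR). A single phenylalanine aminomutase (PAM) came in through its alternative name in the description. In yews that enzyme makes beta-phenylalanine, the start of the taxol side chain. No description among the members named cinnamate 4-hydroxylase, the coumaroyl ester 3-hydroxylase or ferulate 5-hydroxylase.

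Levels are given as FPKM (fragments per length of gene and depth of library, as deposited), and fold changes as fitted log2 values from edgeR's quasi-likelihood test on the counts. A gene was called when its Benjamini-Hochberg adjusted p over all 22384 genes tested was under 0.05. Of the 133 members, 100 had enough counts to be tested and 33 did not. Under 1 FPKM in every library were 41 members, and 21 had 0 counts in every CK library. The filter keeps a gene that is high in only 1 group, so counts and medians over the 100 tested members are descriptions of those genes and not of all members.

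At day 1, 5 tested members rose and 1 fell, beside 4.34% of all tested genes called higher and 1.0% called lower (5.34% in either direction). At day 2, 6 rose and 0 fell, beside 4.09% called higher and 0.858% called lower (4.95% in either direction). Both shares are near those of all genes. An unadjusted p under 0.05 was found for 39 of the 100 tested members at day 1 and for 50 at day 2. Over all 22384 tested genes it was found for 5328 and 5526. Counts by unadjusted p in the steps below are to be read beside these. At day 2 it came with a lower value for 1 member, and DESeq2 and limma called 0 lower. The fitted values leaned upward nonetheless. At day 1 the median log2 fold change of the tested members was 1.00 against 0.03 over all tested genes, and 78 of 100 values were positive against 51.9% of all genes. At day 2 the median was 1.59 against 0.03, with 79 of 100 values positive against 51.6%. The comparisons of day 1 and day 2 share the CK libraries, so an odd CK library moves both. Every treated library lay above every CK library in 31 of 100 members at day 1 (13.5% of all tested genes) and in 44 of 100 at day 2 (18.1%). Every treated library lay below in 10 members at day 1 (23.5% of all genes) and in 10 at day 2 (23.7%).

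DESeq2's Wald test on the same counts called many more members, 31 higher and 1 lower at day 1 and 46 higher and 0 lower at day 2. It also called 16.7% and 17.9% of all genes in either direction. In data simulated from these libraries for day 1, edgeR recovered 0 of 49 genes changed by 1 on the log2 scale and 9 of 49 changed by 2. It recovered 23 of 47 changed by 3 and 33 of 50 changed by 4. The simulated counts varied independently from gene to gene. They lack departures that many genes of a library share, so recovery in the real libraries may differ. For day 2 against day 1 edgeR called 0 members and 0.0% of all genes. An unadjusted p under 0.05 was found for 5 of 100 members, all higher at day 2, and for 949 of all 22384 genes. DESeq2 called 1 of the 100 (0.322% of all genes) and limma called 0. Every day 2 library lay above every day 1 library in 4 of 100 members (4.04% of all tested genes) and below in 0 (2.84%).

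**Figure D1:**
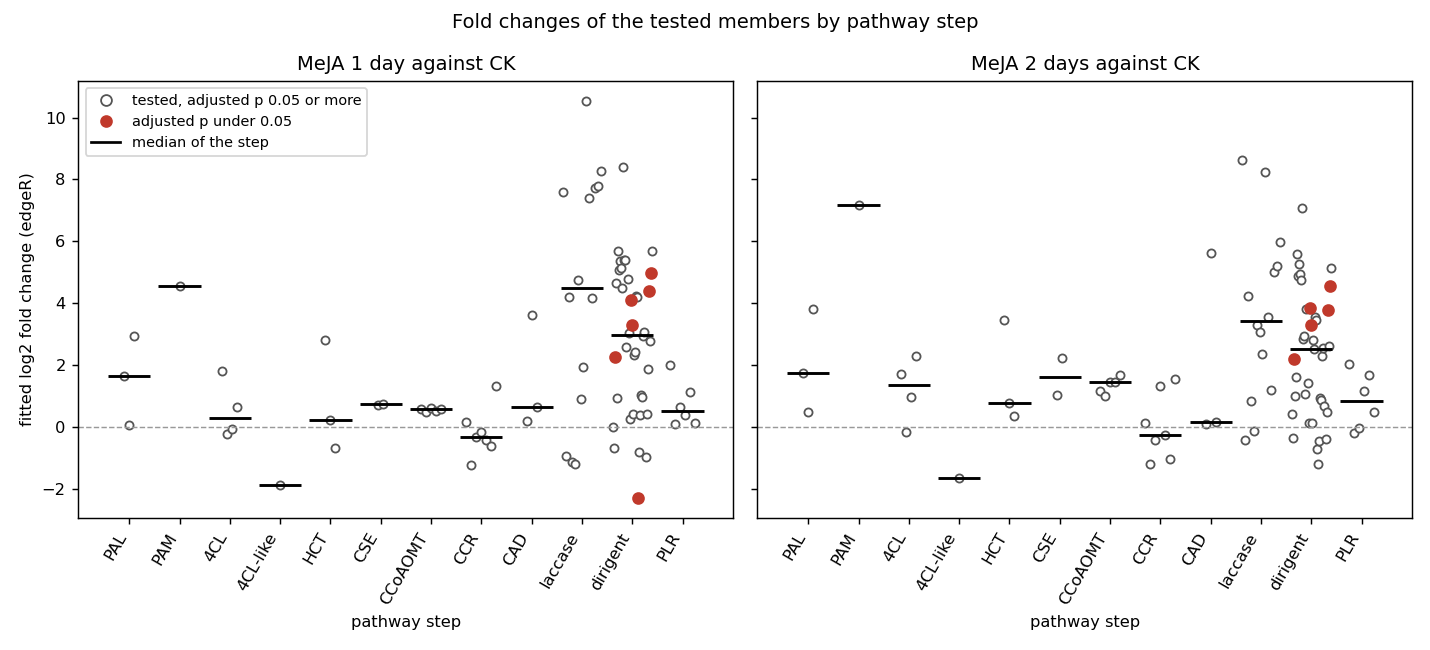
Fitted log2 fold change (edgeR, vertical axis) of each tested member against CK at day 1 (left) and day 2 (right), by pathway step, for 12 steps. Red points have an adjusted p under 0.05, open points do not, and the black bar is the median of the step. The red points are 6 dirigent genes at day 1 and 5 at day 2.

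Dirigent genes made up 6 of the 7 members called in any comparison. At day 1, 5 dirigent genes rose and 1 fell of 38 tested, and the same 5 stood higher at day 2, when 0 fell. By unadjusted p 0 dirigent genes were lower at day 2 either, and DESeq2 and limma called 0 lower. An unadjusted p under 0.05 was found for 23 higher and 1 lower at day 1 and for 21 higher at day 2. DESeq2 called 22 higher and 1 lower at day 1 and 21 higher at day 2, and limma 4 higher and 1 lower and then 5 higher. The median log2 fold change over the 38 was 2.99 at day 1 and 2.54 at day 2, with 34 and 33 positive values. All 50 dirigent genes together summed to 145.5, 159.0 and 117.7 FPKM in CK libraries 1, 2 and 3. They summed to 682.0, 1576.0 and 742.5 in the day 1 libraries and to 1122.0, 917.7 and 774.3 in the day 2 libraries. No treated library came down to the level of CK.

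The leading dirigent gene, PchiChr2G041200, was also the called member with the lowest adjusted p. It stood at 51.4, 63.7 and 29.1 FPKM in CK, at 294, 532 and 458 at day 1 and at 442, 378 and 496 at day 2. All treated libraries were far above all CK libraries, and the 2 days overlapped. The log2 fold change was 3.31 ± 0.38 (SE; adjusted p = 0.00705) at day 1 and 3.31 ± 0.38 (adjusted p = 0.00912) at day 2, with 3 libraries a group. This gene alone carried 24.7 to 64.0% of the summed dirigent FPKM, depending on the library. It kept its call in 18 of 18 alternative analyses at day 1 and in 17 of 18 at day 2. The exception was the fit without CK library 1 (adjusted p = 0.0504).

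Its neighbour PchiChr2G041180, described like it as a dirigent protein 22, ran at lower levels. It stood at 5.31, 10.8 and 4.07 FPKM in CK, at 59.6, 188 and 55.9 at day 1 and at 123, 72.3 and 75.2 at day 2. Day 1 library 2 was highest, and treated and CK libraries did not overlap. The gene rose by 4.09 ± 0.65 (log2; adjusted p = 0.0158) at day 1 and by 3.85 ± 0.65 (adjusted p = 0.0195) at day 2. It kept its call in 15 of 18 alternatives at each day. Both genes lie on chromosome 2 in the block numbered 1 of the table, at 208941978 to 208942754 for the leading gene and at 205537472 to 205538512 for this one.

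PchiChr12G333090, a dirigent protein 22-like gene on chromosome 12, already stood at 25.0, 13.8 and 27.5 FPKM in CK. It reached 75.6, 109 and 105 at day 1 and 80.4, 131 and 61.7 at day 2. Its 6 treated libraries all lay above CK. The log2 fold changes were 2.26 ± 0.41 (adjusted p = 0.0237) and 2.19 ± 0.41 (adjusted p = 0.0259), and the call was kept in 13 and 12 of 18 alternatives.

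The other called dirigent genes that rose were low in CK and sit together on chromosome 9. PchiChr9G266630 stood at 0.346, 1.53 and 0.461 FPKM in CK, at 14.9, 22.6 and 7.09 at day 1 and at 15.7, 2.93 and 12.2 at day 2. PchiChr9G266670 stood at 0.239, 0.368 and 0.105 in CK, at 5.79, 13.6 and 1.49 at day 1 and at 10.6, 2.16 and 3.98 at day 2. In both, treated and CK libraries did not overlap. The lowest treated library was day 2 library 2 in the former and day 1 library 3 in the latter. PchiChr9G266630 rose by 4.41 ± 0.86 (log2; adjusted p = 0.0298) and 3.77 ± 0.84 (adjusted p = 0.0444). PchiChr9G266670 rose by 4.99 ± 1.04 (adjusted p = 0.0346) and 4.55 ± 1.02 (adjusted p = 0.0446). Of 18 alternatives, the former kept its call in 12 at day 1 and 9 at day 2, and the latter in 8 and 9.

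A single member fell. PchiChr4G098130, described as dirigent-like, stood at 2.04, 2.41 and 3.37 FPKM in CK, at 0.449, 0.458 and 0.501 at day 1 and at 1.59, 1.49 and 1.25 at day 2. The day 1 libraries were close together and below all others, and the day 2 libraries lay between day 1 and CK. Its counts were few, at 79, 88 and 121 in CK and 17, 17 and 18 at day 1. It fell by 2.29 on the log2 scale at day 1 (SE 0.42, adjusted p = 0.0245), a call kept in 10 of 18 alternatives. At day 2 the value was -0.72 ± 0.40 (adjusted p = 0.301), and the difference between the days was 1.58 ± 0.41 and was not called by edgeR (adjusted p = 0.954). DESeq2 called that difference, its single called member between the days.

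The calls of members, over all steps, depend on which libraries are fitted, and so does the share of all genes called. Without CK library 1, the day 1 calls were 1 higher and 0 lower (0.587% of all genes called). The day 2 calls were then 0 and 0 (0.21%). Without CK library 3 the calls were 1 and 0 on day 1 (0.621%) and 1 and 0 on day 2 (0.892%). Without CK library 2 they were 3 and 0 on day 1 (1.56%) and 2 and 0 on day 2 (1.63%). Without day 1 library 1 they were 3 and 0 on day 1 (4.22%) and 3 and 0 on day 2 (3.51%). Without day 1 library 3 they were 11 and 0 on day 1 (3.48%), of which 8 were dirigent genes. Without day 1 library 2 the day 2 calls were 21 higher (12.7%), of which 14 were dirigent genes. Leaving out day 2 library 2 gave 1 higher on day 2 (1.89%), and leaving out day 2 library 3 gave 3 higher on day 1 (2.6%).

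**Figure D2:**
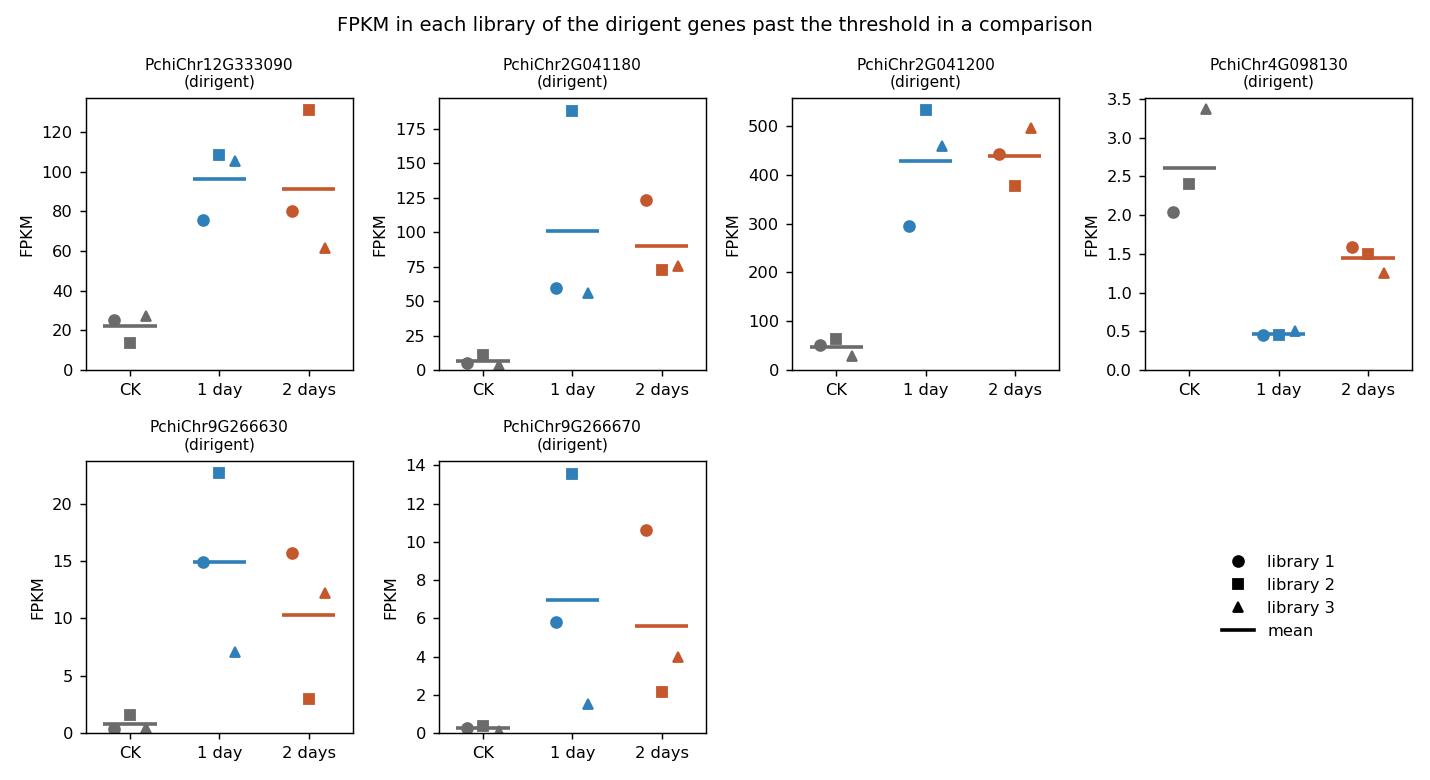
FPKM (vertical axis, linear and starting at 0) of the 6 dirigent genes called in at least 1 comparison, in each library of CK, MeJA 1 day and MeJA 2 days. Symbols mark the library number within its group, which is not known to pair libraries, and bars are group means. The 5 dirigent genes that rose have every treated library above every CK library, and PchiChr4G098130 is lowest at day 1.

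Dirigent genes were grouped along the chromosomes. Members of a step with at most 10 table genes between them were taken as a neighbourhood, and 47 of the 50 dirigent genes fell into 8 of these. Chromosome 2 held 25 of the 50. The largest neighbourhood had 19 dirigent genes, spread over 15.3 Mb of chromosome 2. It summed to 71.8, 91.1 and 44.8 FPKM in CK, to 414.5, 945.0 and 544.1 at day 1 and to 748.1, 489.3 and 625.6 at day 2. The larger part of the sum in every library came from the leading gene PchiChr2G041200, at 51.4, 63.7 and 29.1 FPKM in CK and 294, 532 and 458 at day 1. Its 13 tested genes all had positive values at both days, and 2 were called, both described above. Every treated library lay above CK in 6 of the 13 at day 1 (13.5% of all tested genes) and in 6 at day 2 (18.1%). Under 1 FPKM in every library were 8 of the 19. Another 6 of the 19 genes were not tested.

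A second neighbourhood on chromosome 2 held 6 dirigent genes within 1.74 Mb. It summed to 1.88, 3.67 and 4.14 FPKM in CK, to 51.2, 226.5 and 14.6 at day 1 and to 75.2, 202.4 and 12.5 at day 2. The third library of each treated group was lowest and the second highest. None of the 6 was called by edgeR or limma, while DESeq2 called all 6 higher at both days. In edgeR they had adjusted p of 0.0548 or more at day 1 and of 0.058 or more at day 2. Neighbours here can run alike: PchiChr2G039500 stood at 7.23, 36.6 and 2.49 FPKM at day 1 and PchiChr2G039510 at 7.72, 41.2 and 2.47. Whether genes of this neighbourhood share reads was not tested, so the 6 may not be separate results. The chromosome 9 neighbourhood of 4 genes summed to 1.16, 3.60 and 1.65 FPKM in CK, to 31.8, 47.2 and 12.6 at day 1 and to 39.9, 6.80 and 24.9 at day 2. Of its 4 genes, 2 were called.

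Not every dirigent neighbourhood stood higher. The 3 genes on chromosome 4, among them the gene that fell, summed to 4.84, 4.79 and 8.24 FPKM in CK and to 0.995 to 4.92 in the treated libraries. The 7 genes on chromosome 8 summed to 8.85 to 14.8 in CK and to 13.0 to 133.7 in the treated libraries. The chromosome 6 groups also overlapped with CK. The chromosome 12 group summed to 38.3 to 48.0 in CK and to 91.1 to 216.2 in the treated libraries. Within it PchiChr12G333080, next to the called gene, stood at 4.67 to 8.91 FPKM in CK and at 2.80 to 5.01 in the treated libraries. The pair PchiChr2G041360 and PchiChr2G041370 never differed by more than 1.22-fold in any library, and PchiChr6G173840 and PchiChr6G174260 by no more than 1.06-fold. Whether the genes of these pairs share reads was not tested, so their single values are uncertain.

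**Figure D3:**
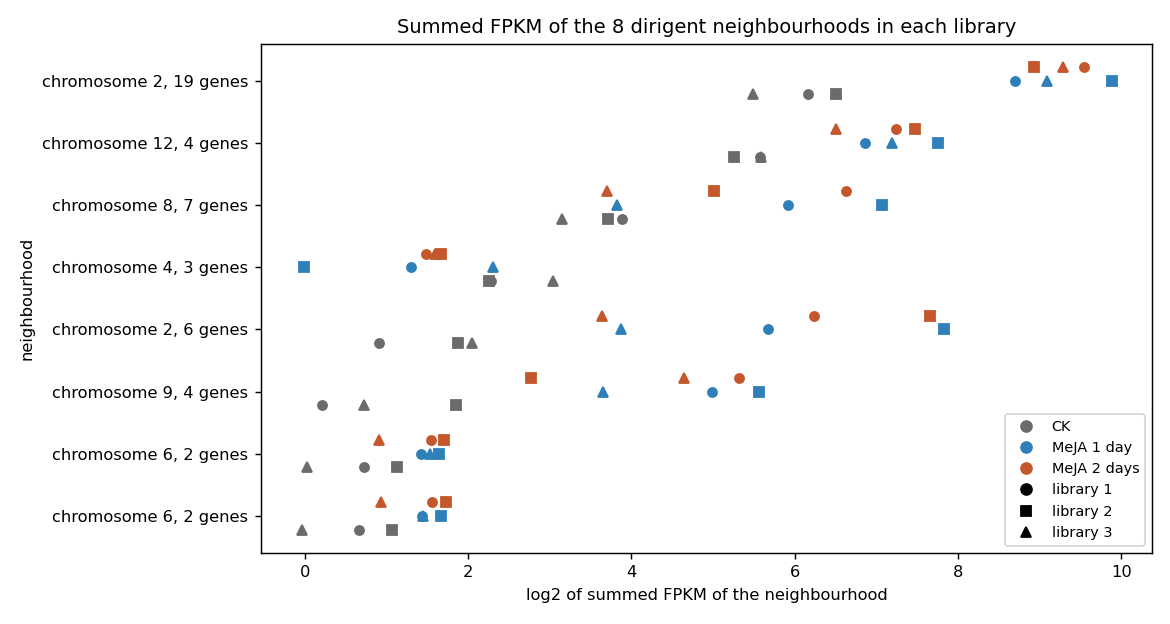
Summed FPKM (log2 scale, horizontal axis) of the 8 dirigent neighbourhoods (vertical axis) in each library; colours mark the groups and symbols the library number. Both chromosome 2 neighbourhoods and those of chromosomes 9 and 12 have all treated libraries above all CK libraries. Those of chromosomes 4, 6 and 8 do not.

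At the entry of the pathway no PAL gene was called. PchiChr6G176640 had the lowest adjusted p of the 3. It stood at 0.253, 3.61 and 0.224 FPKM in CK, at 5.35, 16.6 and 5.69 at day 1 and at 3.17, 33.1 and 14.2 at day 2. CK library 2 was high within CK and above day 2 library 1, so CK and day 2 overlapped. The log2 values were 2.93 ± 1.31 (adjusted p = 0.219) and 3.82 ± 1.36 (adjusted p = 0.14). The gene with the highest CK level, PchiChr3G070820, ran at 14.7 to 19.6 FPKM in CK and at 7.42 to 29.2 in the treated libraries. PchiChr10G275710 stayed under 5 FPKM throughout. At day 1 an unadjusted p under 0.05 was found for 1 PAL gene and at day 2 for 2, and DESeq2 called 0 and 1.

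The aminomutase PchiChr5G152450 differed widely between libraries of a group. It stood at 0.0266, 15.1 and 0.0570 FPKM in CK, at 56.0, 0.480 and 290 at day 1 and at 59.4, 1459 and 349 at day 2. CK library 2 was above day 1 library 2, and the day 2 libraries were above all CK libraries. Fitted log2 changes were 4.56 ± 2.68 (adjusted p = 0.322) and 7.16 ± 3.03 (adjusted p = 0.192), and edgeR called neither. DESeq2 called the gene higher at day 2.

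Among the 4CL genes, the ligases that activate coumarate, PchiChr11G300290 had the highest mean level and was nearly level. It stood at 23.5, 21.7 and 13.1 FPKM in CK, at 14.7, 18.0 and 12.4 at day 1 and at 19.1, 15.4 and 13.8 at day 2. The groups overlapped, and the log2 values were -0.21 ± 0.27 (adjusted p = 0.646) and -0.15 ± 0.27 (adjusted p = 0.769). PchiChr8G233250, with the lowest adjusted p of the step, reached 4.01 FPKM at most and had an adjusted p of 0.719 at day 1 and 0.23 at day 2. None of the 4 genes had an unadjusted p under 0.05 at either day, and DESeq2 and limma called 0. The 4CL-like gene PchiChr9G249030 stood at 1.08, 0.927 and 0.857 FPKM in CK, at 0.329, 0.081 and 0.298 at day 1 and at 0.152, 0.0292 and 0.662 at day 2. All its treated libraries lay below CK. The log2 values were -1.87 ± 0.94 (adjusted p = 0.264) and -1.65 ± 0.93 (adjusted p = 0.31), and neither edgeR, DESeq2 nor limma called it.

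HCT transfers coumaroyl groups to shikimate, by which the ring is made ready for its next hydroxyl group. Among its members 1 was well expressed. PchiChr6G187190 stood at 3.77, 2.40 and 3.72 FPKM in CK, at 19.8, 26.3 and 15.7 at day 1 and at 11.9, 73.3 and 9.26 at day 2. All treated libraries lay above all CK libraries, with day 2 library 2 far above the rest. The log2 values were 2.80 ± 0.83 (adjusted p = 0.0944) and 3.47 ± 0.86 (adjusted p = 0.0582), both short of the threshold in edgeR. DESeq2 called it at both days. The other tested HCT members stayed under 2 FPKM. Outside the members, 17 genes carry the orthology number of HCT, and their summed FPKM was below CK in every treated library. They summed to 236.9, 245.1 and 427.2 in CK, to 91.6, 136.4 and 85.5 at day 1 and to 100.4, 40.0 and 94.6 at day 2. Of the 9 tested, edgeR called 0 higher and 1 lower at day 1 and 1 higher and 1 lower at day 2.

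Both CSE genes, whose enzyme frees caffeate from its shikimate ester, lay above CK in every day 2 library. Neither was called by edgeR, and DESeq2 called 2 at day 2. PchiChr3G067860 stood at 8.55, 9.88 and 8.88 FPKM in CK, at 11.7, 8.33 and 22.5 at day 1 and at 12.5, 69.6 and 29.3 at day 2. At day 1 it overlapped with CK. Its log2 value at day 2 was 2.22 (adjusted p = 0.0873). PchiChr3G067830 ran from 7.28 to 9.41 FPKM in CK and from 9.44 to 19.9 at day 2 (log2 1.02, adjusted p = 0.123).

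The CCoAOMT genes add the methoxyl group of coniferyl alcohol, the main monolignol of conifers. All 5 tested genes had positive values at both days and none was called. At day 2 all 5 had an unadjusted p under 0.05 and DESeq2 called 4, while at day 1 both counts were 0. The 8 genes summed to 110.2, 84.4 and 91.7 FPKM in CK, to 107.6, 100.3 and 179.6 at day 1 and to 166.3, 329.4 and 171.1 at day 2. The sum of these 8 genes thus lay above CK in every day 2 library while day 1 overlapped with it. Of the 5 tested genes, 3 had every day 2 library above CK (18.1% of all tested genes), all of them neighbours on chromosome 7. Outside the members, PchiChr7G205200 carries the orthology number of CCoAOMT and was more abundant. It stood at 365, 1077 and 647 FPKM in CK, at 431, 443 and 275 at day 1 and at 163, 106 and 641 at day 2. Its log2 values were -0.72 (adjusted p = 0.532) and -1.12 (adjusted p = 0.349).

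PchiChr7G202410 had the lowest adjusted p of the step. It stood at 18.6, 16.1 and 17.9 FPKM in CK, at 19.6, 18.5 and 34.9 at day 1 and at 24.7, 81.8 and 42.2 at day 2. Its log2 values were 0.59 ± 0.46 (adjusted p = 0.439) and 1.67 ± 0.47 (adjusted p = 0.0819). Its neighbours PchiChr7G202390 and PchiChr7G202400 differed from it by at most 1.27-fold and 1.28-fold in any library, so the 3 genes may share reads. PchiChr2G038810, the gene with the highest mean level, stood at 19.3 to 32.3 FPKM in CK, 23.6 to 53.5 at day 1 and 25.8 to 69.0 at day 2 (day 2 log2 1.16 ± 0.43, adjusted p = 0.155).

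The reductive steps to the monolignols gave no call. CCR turns the CoA esters into aldehydes, and PchiChr8G223460 was the most abundant member. It stood at 42.3, 26.5 and 27.9 FPKM in CK, at 30.2, 129 and 57.0 at day 1 and at 77.5, 131 and 44.3 at day 2. Day 1 overlapped with CK and day 2 did not, though day 2 library 3 was only just above CK. On the log2 scale the differences from CK were 1.34 ± 0.62 (adjusted p = 0.231) and 1.55 ± 0.62 (adjusted p = 0.176). Across the 7 tested CCR genes the median was -0.31 at day 1 and -0.25 at day 2. At day 1 none had an unadjusted p under 0.05, at day 2 there were 2 (1 in each direction), and DESeq2 called 0 at both days. Outside the members, 10 genes carry the orthology number of CCR and were together more abundant. They summed to 520.4, 780.1 and 696.4 FPKM in CK, to 429.4, 662.3 and 392.9 at day 1 and to 461.6, 242.1 and 517.7 at day 2. Of these 10, edgeR called 0 at both days, and DESeq2 called 1 lower at each day.

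CAD reduces the aldehydes to alcohols. PchiChr1G005070, the CAD gene with the highest mean level, stood at 47.4, 57.8 and 42.9 FPKM in CK, at 26.7, 53.4 and 75.5 at day 1 and at 41.4, 29.1 and 79.1 at day 2. The groups overlapped and the log2 values of 0.20 ± 0.43 and 0.11 ± 0.43 (adjusted p = 0.79 and 0.893) turned negative under limma on log2(FPKM + 1), at -0.04 and -0.10. PchiChr2G036820, from which little came in CK, stood at 0.0434, 2.32 and 0 FPKM there, at 5.34, 0.584 and 22.5 at day 1 and at 3.98, 58.2 and 43 at day 2. CK library 2 was again above day 1 library 2. The log2 values were 3.63 ± 1.92 (adjusted p = 0.282) and 5.63 ± 2.10 (adjusted p = 0.152). An unadjusted p under 0.05 was found for 0 CAD genes at day 1 and for 1 at day 2, and DESeq2 called the same numbers. Outside the members, 7 genes carry the orthology number of CAD. They summed to 249.8, 224.0 and 228.0 FPKM in CK, to 198.9, 500.9 and 209.3 at day 1 and to 247.8, 195.8 and 234.7 at day 2. Of these 7, edgeR called 0 at both days.

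**Figure D4:**
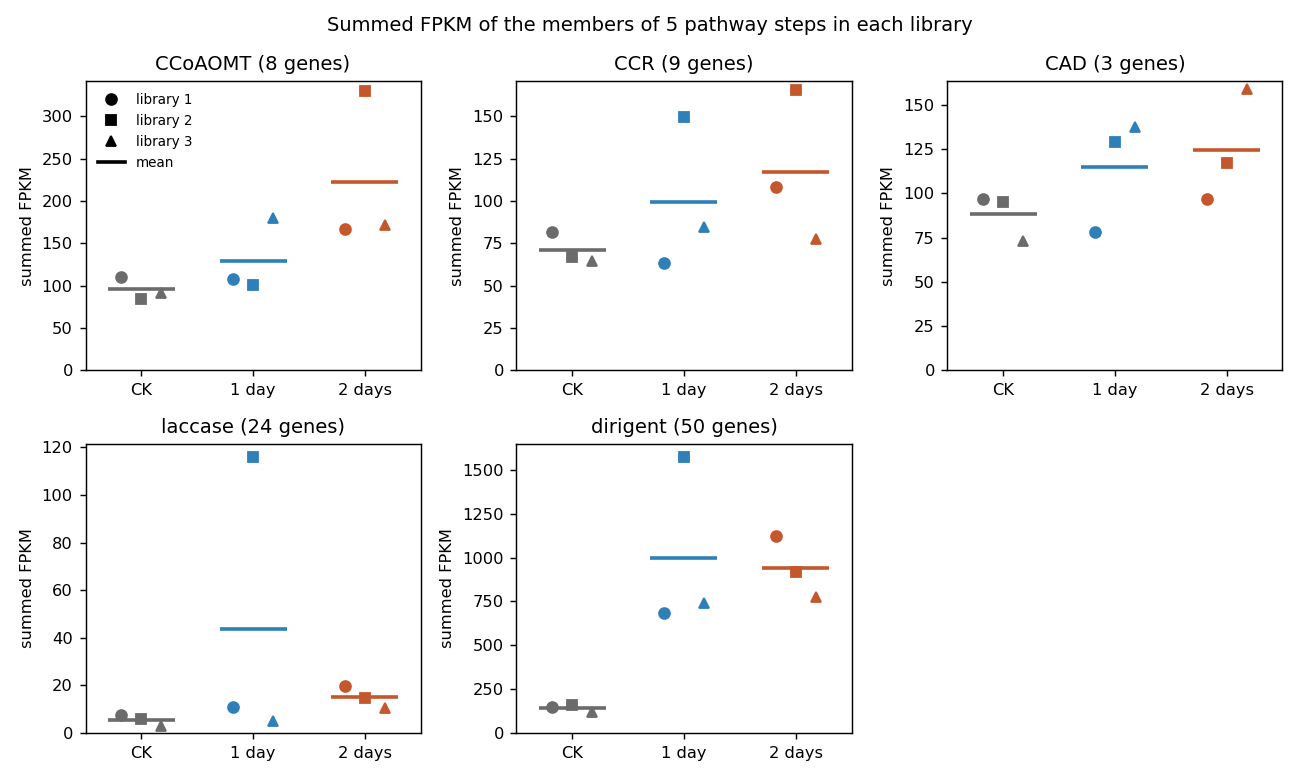
Summed FPKM (vertical axis, linear and starting at 0) of the members of 5 steps in each library; symbols mark the library number and bars the group means. CCoAOMT is highest in day 2 library 2, laccases and dirigent genes in day 1 library 2.

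Laccases, the copper oxidases that couple monolignols in the wall, were low in CK. Of 24 genes, 13 stayed under 1 FPKM in every library and 8 had 0 counts in every CK library. No laccase was called in edgeR. Of the 14 tested, 9 had an unadjusted p under 0.05 at day 1 and 7 at day 2, all higher, and DESeq2 called 6 and 7. The median fitted log2 value of the 14 was 4.48 at day 1 and 3.43 at day 2, or 4.46 and 3.43 with the gene at 0 in CK held to a floor of 3 counts for the whole group. Fitted values this far from CK counts of a few reads depend on the prior count of the fit.

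A neighbourhood of 6 laccases lies within 2.01 Mb of chromosome 8. It summed to 0.341, 0.783 and 0.665 FPKM in CK, to 5.60, 103.7 and 0.764 at day 1 and to 8.82, 8.55 and 2.49 at day 2. Day 1 library 2 stood alone, and day 1 library 3 was within the range of CK. PchiChr8G230760, the laccase with the highest mean, stood at 0.0281, 0 and 0 FPKM in CK, at 1.08, 51.6 and 0.285 at day 1 and at 2.21, 7.76 and 1.04 at day 2, with adjusted p = 0.0608 and 0.0982. PchiChr8G230840, with the lowest adjusted p of the step, had 3 counts in all of CK and 873 at day 1 (adjusted p = 0.058). It reached 7.52 FPKM in day 1 library 2 and 1.26 or less in the other day 1 libraries.

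PLR converts pinoresinol, a lignan, to lariciresinol and secoisolariciresinol. None of the 6 tested genes was called. PchiChr8G225820 came nearest, at 9.48 to 11.7 FPKM in CK, 14.5, 26.6 and 20.3 at day 1 and 29.0, 42.8 and 17.1 at day 2. Its treated libraries all lay above CK. Its log2 fold changes were 1.13 ± 0.40 (adjusted p = 0.14) and 1.67 ± 0.40 (adjusted p = 0.0558). PchiChr3G077590, the PLR gene with the highest mean level, stood at 28.0, 20.6 and 18.8 in CK, at 18.1, 48.9 and 26.6 at day 1 and at 28.4, 11.5 and 21.7 at day 2. The groups overlapped, with log2 values of 0.65 ± 0.43 (adjusted p = 0.368) and -0.04 ± 0.42 (adjusted p = 0.967). By unadjusted p, 1 PLR gene was under 0.05 at day 1 and 2 at day 2, all higher, and DESeq2 called 0 and 2.

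The members showed 2 arrangements over the libraries, described here after their values were seen. In the first, shared by the aminomutase PchiChr5G152450, the CAD gene PchiChr2G036820 and the laccase PchiChr6G165570, day 2 library 2 or day 1 library 3 was highest and day 1 library 2 was lowest among treated libraries. Over the 9 libraries Pearson's r of log2(FPKM + 1) with the aminomutase was 0.973 for the CAD gene and 0.971 for the laccase. The points share libraries and treatment. Without CK library 2 and day 1 library 2, an analysis chosen after seeing the data, edgeR called 10 members at day 2 (6.38% of all genes called in either direction) and 5 at day 1 (3.4% of all genes). The libraries left out are those that mark the arrangement, so these counts support nothing about its genes.

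In the second arrangement day 1 library 2 was highest. Among the day 1 libraries it held the highest FPKM for 30 of 38 tested dirigent genes and 10 of 14 laccases, and for 57 of 100 members against 31.7% of all tested genes. The dirigent PchiChr12G333100 is an example, singled out after its values were seen. It stood at 0.780 to 3.08 FPKM in CK, at 1.38, 97.8 and 1.79 at day 1 and at 1.75 to 4.85 at day 2.

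**Figure D5:**
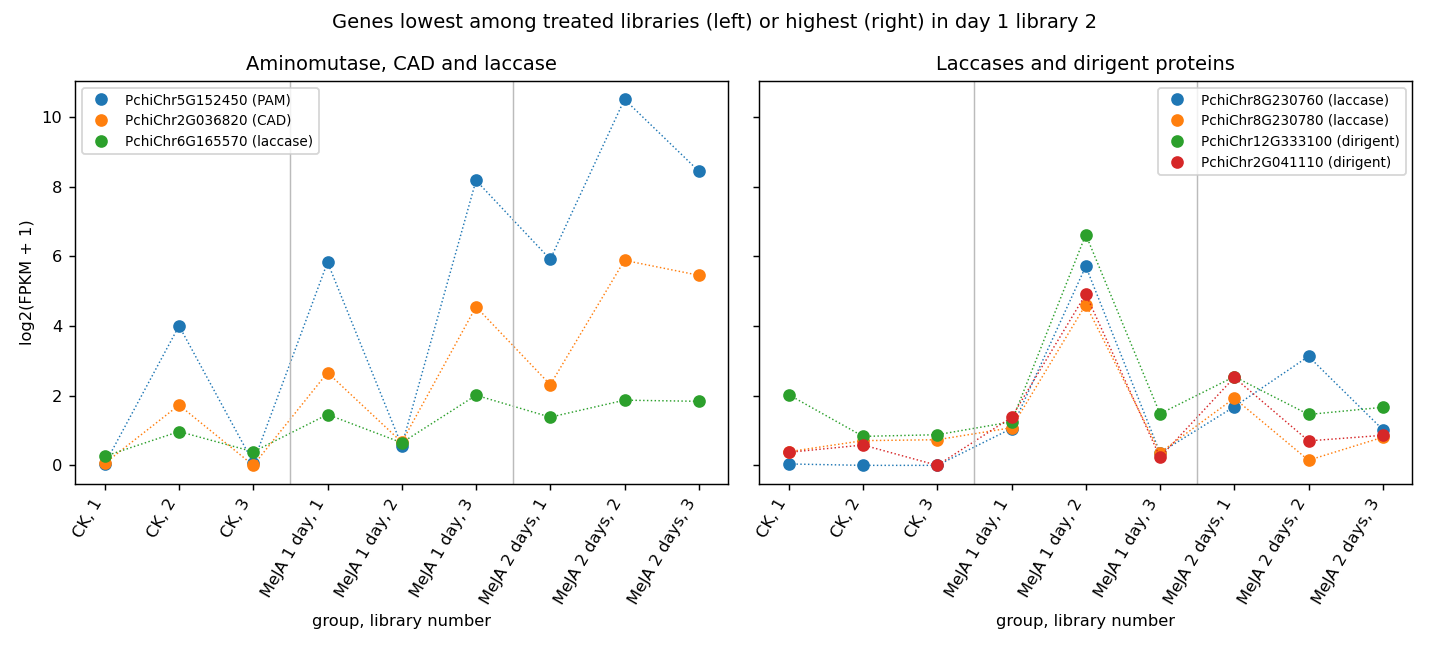
log2(FPKM + 1) (vertical axis) of 7 members in each of the 9 libraries (horizontal axis, by group and library number), 3 on the left and 4 on the right; dotted lines join the values of a gene for the eye, and grey lines part the groups. The left genes dip in day 1 library 2 and are highest in day 2 library 2 or day 1 library 3, and the right genes peak in day 1 library 2.

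Among the libraries with these extremes, the second library of each treated group also stood apart in mesophyll markers. Total counts ran from 48893949 to 58703021, and day 1 library 2 stood apart on the second principal component of all genes (24.2% of the variance), at 207 against -82.9 to 27. Summed FPKM of 16 mesophyll genes (light harvesting and carbon fixation) was 9159 to 11720 in CK, 6803, 850.2 and 3796 at day 1 and 3905, 645.9 and 3679 at day 2, so the tissue label held in CK and the level was lowest in the second library of each treated group. None of the 12 tested mesophyll genes was called by edgeR. At day 1 and day 2, 1 and 7 had an unadjusted p under 0.05, and DESeq2 called 1 and 4 lower. In 11 of the 12 every treated library lay below CK at both days (23.5% and 23.7% of all genes). Summed FPKM of 12 woody tissue and wall genes was 60.6 to 64.6 in CK and 98.3 to 163.7 in treated libraries. Of 10 tested, 2 and 3 were called higher, beside 4.34% and 4.09% of all genes. By unadjusted p 2 were lower at each day, and DESeq2 called 1 and 2 lower. Of 40 tested reproductive and seed genes 12 rose at day 1, and at day 2 11 rose and 1 fell. By unadjusted p 3 of the 40 were lower at each day. Of 10 tested epidermis genes 1 rose at each day. By unadjusted p 3 epidermis genes were lower at day 1 and 2 at day 2. DESeq2 called 2 and 1 of them lower, and limma 1 at each day. Of 7 tested phloem genes edgeR, DESeq2 and limma called 0, with an unadjusted p under 0.05 for 1 at day 1 and 0 at day 2. The part of these differences in the results above was not tested. In bulk leaf RNA, fewer cells of a type and less RNA per cell cannot be told apart.

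Apart from the peroxidases given below, genes around the pathway gave few calls. Of 11 genes of the shikimate route, which makes phenylalanine, 1 rose at day 2 and none was called at day 1, when 3 had an unadjusted p under 0.05 and DESeq2 called 3. The gene that rose was the arogenate dehydratase PchiChr5G127660, whose enzyme makes phenylalanine, at 4.63, 13.7 and 6.37 FPKM in CK, 50.4, 52.9 and 80.5 at day 1 and 54.8, 706 and 158 at day 2. All treated libraries lay above CK. The log2 values were 3.01 (adjusted p = 0.106) and 5.43 (adjusted p = 0.0292). Among 4 tested hydroxycinnamoyl transferases outside the members, PchiChr11G306560 fell at both days, from 26.1, 43.4 and 32.4 FPKM in CK to 10.5, 9.30 and 12.9 at day 1 and 18.1, 8.98 and 8.99 at day 2. Its log2 values were -1.52 (adjusted p = 0.0315) and -1.40 (adjusted p = 0.0409). It is the same gene that was counted above as called lower among those with the orthology number of HCT.

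Class III peroxidases are the other oxidases of lignin formation. Of 29 tested, 7 rose at day 1 and 6 at day 2, beside 4.34% and 4.09% of all genes called higher. DESeq2 called 12 higher and 1 lower at day 1 and 9 higher and 2 lower at day 2, and limma 4 higher and 0 lower at each day. By unadjusted p 2 were lower at each day. All 46 genes of the list summed to 409.0, 386.5 and 412.2 FPKM in CK and to 620.2, 836.2 and 517.6 at day 1. At day 2 they summed to 502.2, 361.2 and 427.3, which overlapped with CK. PchiChr5G147320 stood at 4.45, 3.98 and 2.94 FPKM in CK, at 41.7, 75.4 and 45.0 at day 1 and at 46.3, 36.9 and 38.6 at day 2. PchiChr8G221830 stood at 2.09, 1.69 and 1.55 in CK, at 15.1, 11.8 and 20.2 at day 1 and at 14.4, 18.6 and 13.9 at day 2. Neither gene overlapped with CK, and both rose at day 1 (adjusted p = 0.00363 for each) and at day 2 (adjusted p = 0.00503 and 0.0037). None of 6 related reductases or 2 chalcone synthases was called by edgeR, DESeq2 or limma or had an unadjusted p under 0.05 against CK.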

How the data were processed

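Leaf RNA libraries were made with a polyA kit, and the submitters' processing notes name fastp, HISAT2 and HTSeq without versions or settings. For the build, the annotation and the strand setting, nothing is stated in the labels. The authors deposited a single table with estimated counts and FPKM per library, descriptions from other species, KEGG terms and positions. The deposited counts exceeded an FPKM-proportional value by 0 to 1 in 100% of 108 low values compared (tolerance 0.05). They are thus estimated counts that had been rounded up, and no further rounding was applied. For the deposited FPKM, the authors scaled fragments to gene length and depth. Positions follow the table, and the number after the chromosome was taken as the name of a block.

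Members were matched by text in the description and split by step. Genes of 1 step are counted in the totals over members and are not reported here. The members, steps and lists were chosen with earlier results of these data known. Counts of all 9 libraries were fitted together with edgeR 4.0.16 under R 4.3.3 (two-sided quasi-likelihood F test, TMM, filterByExpr with a minimum count of 10, no covariates), with Benjamini-Hochberg adjustment over 22384 genes. Alternatives were DESeq2 1.42.0, limma 3.58.1 on log2(FPKM + 1) or log2(FPKM + 0.1), other filters and size factors, the groups compared alone, a replicate block, and each library left out. Splitting PAM, HCT, CSE and the 4CL-like gene from their broader steps, and lists by KEGG orthology, were chosen after seeing the data. Named genes were all called members and, in each broader step, those with the highest mean FPKM and the lowest adjusted p, and any other gene named was picked after its values were seen. The fits were tested on simulated data, and edgeR called 3 of 21853 unchanged genes. That simulation had no departures shared by the genes of a library, so it does not give the error rate in the real libraries. Total counts of 48893949 to 58703021 set the counting precision only.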

Additional observations from a re-analysis of the deposited data

How the results depend on the processing

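Members called higher at day 1 numbered 31 with DESeq2 (16.7% of all genes called) and 3 with CK and day 1 fitted alone (2.47%). At day 2 they numbered 46 with DESeq2 (17.9%) and 15 with the groups alone (8.92%). Without CK library 2 and day 1 library 2 they numbered 10 at day 2 (6.38%). Between the days DESeq2 called 1. The lower call at day 1 went to 0 with the groups alone, with the replicate block and without CK library 2 and day 1 library 2. Median log2 fold changes under limma on log2(FPKM + 1) were 0.70 at day 1 and 1.08 at day 2, and between the days 0.73 without those libraries. With each library left out, counts ran from 1 to 11 higher and 0 to 1 lower at day 1 and from 0 to 21 higher at day 2. The share of all genes called ran from 0.587 to 5.24% at day 1 and from 0.21 to 12.7% at day 2. Medians ran from 0.80 to 1.25 at day 1, from 1.28 to 1.75 at day 2 and from 0.03 to 0.78 between the days. The cause was not tested. CAD PchiChr1G005070 turned to -0.04 (limma, both pseudocounts) and -0.11 (without day 1 library 3) at day 1, and to -0.10 (limma, both) and -0.38 (without day 2 library 3) at day 2. With a library left out it ran from -0.11 to 0.52 at day 1 and from -0.38 to 0.35 at day 2. PLR PchiChr3G077590 at day 2 turned to 0.13 without CK library 1 and 0.22 without day 2 library 2 (range -0.32 to 0.22). The labels do not say whether replicate numbers pair the libraries. Same-numbered deviations correlated at -0.123 to 0.307. Between the days, libraries 1 and 3 correlated at 0.307 and 0.262 when same-numbered and at -0.26 and -0.333 when crossed. The second libraries of the 2 days correlated at -0.0181. These values do not settle whether libraries are paired. With the replicate block 4 members were called higher at day 1 (3.34% of all genes called) and 6 at day 2 (3.86%). Of these, 2 and 3 were also called without it. Depth did not limit the leading genes, but members with a few counts in CK have no firm fold change.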

Other observations

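Of the 3 steps without a member by description, cinnamate 4-hydroxylase and the coumaroyl ester 3-hydroxylase had genes by KEGG orthology, and ferulate 5-hydroxylase had 0. Of 3 genes numbered as cinnamate 4-hydroxylase, PchiChr3G075170 was the most abundant, at 25.6 to 43.1 FPKM in CK, 30.9 to 51.1 in 5 treated libraries and 479 in day 1 library 2 (edgeR adjusted p = 0.129 at day 1). A gene described only as unknown, PchiChr6G175130, carries the orthology number of PAL and had a higher mean FPKM than each of the 3 PAL members in every group. It stood at 18.1, 19.6 and 19.3 FPKM in CK, at 69.2, 389.7 and 128.6 at day 1 and at 92.9, 712.9 and 88.9 at day 2. Its treated libraries all lay above CK, yet the adjusted p were 0.0966 and 0.0689. The coumaroyl ester 3-hydroxylase PchiChr8G232300 stood at 5.06 to 7.62 FPKM in CK, 4.88 to 6.32 at day 1 and 10.3, 35.3 and 4.09 at day 2 (adjusted p = 0.966 and 0.205).

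The pathway terms of the dirigent genes do not follow their descriptions. Of 50 dirigent genes, 23 carry the orthology number of isoleucyl-tRNA synthetase and with it the pathway aminoacyl-tRNA biosynthesis, where they are 20.5% of 112 genes. Among 34 genes with that number only 3 are described as a tRNA ligase, and 8 others are neither tRNA ligases nor dirigent genes by description. Of 6 genes of that pathway called higher at day 1, 3 were dirigent genes, and the same counts held at day 2.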
